A study of Mus musculus with 6 samples.

Results

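Places where Tgif1 and Nanog bound the same short stretch of chromatin in mouse embryonic stem cells were compared summit by summit. A pair was a Tgif1 and a Nanog peak on chromosomes 1 to 19 whose summits, the positions of highest signal, were each other's nearest and lay at most 200 bp apart. The 5 lists of the series hold 70533 peaks, and the rule gave 4744 pairs of 1 Tgif1 and 1 Nanog peak. The pairs took up 29.2% of the 16273 autosomal Tgif1 peaks (95% Wilson interval 28.5 to 29.9) and 28.2% of the 16833 autosomal Nanog peaks (27.5 to 28.9). A further 1231 autosomal Tgif1 peaks overlapped a Nanog peak without forming such a pair.

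The cells were J1 mouse embryonic stem cells, grown with serum and leukemia inhibitory factor and carrying BirA, a bacterial ligase that puts biotin on tagged proteins. All groups shared this background and received no other treatment that the labels name. Chromatin was cross-linked with formaldehyde, and immunoprecipitated DNA was sequenced on Illumina instruments. Tgif1, Hdac1 and Smad3 were each precipitated with an antibody, whereas Nanog and Tgif2 were precipitated with streptavidin beads. Each factor had 1 library and 1 deposited peak list, and the mock precipitation was not analysed here. With 1 library per factor there was no replicate check and no test between libraries. Tgif1 and Nanog also differed in pull-down. Differences between them in spread, width or fold enrichment thus cannot be told apart from differences of pull-down or library. The intervals below are for a median, a difference of medians, a share or a correlation, with pairs or peaks taken as independent draws. They are not the range of the pairs, and pairs are not replicates of a condition.

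Tgif1 is a homeodomain protein of the TALE class that acts mainly as a corepressor: it binds DNA directly or through Smad proteins and brings in histone deacetylases. Nanog is a homeodomain factor that helps hold embryonic stem cells in the pluripotent state. Hdac1 removes acetyl groups from histones as a subunit of several corepressor complexes, Smad3 carries TGF-beta, Activin and Nodal signals to chromatin, and Tgif2 is the paralog of Tgif1. Gene names and DNA sequence of the pairs are not given, because no genome or annotation of the mm9 build was used here.

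The signal of a peak was the number of sequence tags that the authors' list gives for it. Paired Tgif1 peaks held 30 to 1365 tags with a median of 55, and paired Nanog peaks held 16 to 1349 with a median of 43. The lowest values, 30 and 16, were also the smallest in the full lists, so weaker sites of either factor could not enter a pair. For the comparison each tag number was divided by the tag sum of its list, 1091641 for Tgif1 and 821817 for Nanog, and expressed per 1000000 tags. On this scale the median pair had 50.4 for Tgif1 (49.5 to 51.3) and 52.3 for Nanog (51.1 to 53.5). How deeply the libraries were sequenced is not known, so the scale refers to tags in peaks only.

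Relative to the lists, the factors were balanced at the median pair but differed widely from pair to pair. The median log2 ratio of Tgif1 over Nanog was -0.04 (-0.08 to 0.00), with quartiles of -0.93 and 0.66 and an SD over pairs of 1.18. Tgif1 was at least 2-fold above Nanog in 751 pairs, 15.8% of all pairs, and Nanog was at least 2-fold above Tgif1 in 1111 pairs, 23.4%. The remaining 2882 pairs, 60.8%, lay within 2-fold. Which side held more pairs depended on the scaling: dividing by the tag sums of the paired peaks moved the median to 0.43 and gave 1377 pairs on the Tgif1 side against 664 on the Nanog side. The ranks and the differences of the median log2 ratio between kinds of pair described below do not change with such a factor. The shares of pairs beyond 2-fold given below do change with it.

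**Figure D1:**
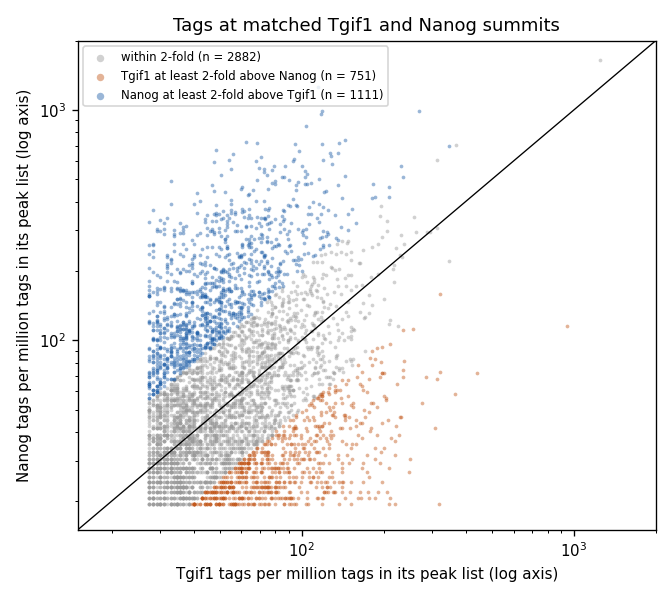
Tags at the 4744 matched summits, as tags per 1000000 tags of the list, for Tgif1 (horizontal) and Nanog (vertical), both on log axes; each point is a pair and the line marks equality. Nanog values spread further up than Tgif1 values spread to the right, and the sharp left and lower edges are the smallest tag numbers in the lists, 30 and 16.

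Nanog signal varied more among the pairs than Tgif1 signal did. The 95th percentile was 13.4 times the 5th for Nanog and 4.59 times for Tgif1. The ratio therefore followed Nanog more closely than Tgif1, with rank correlations across pairs of -0.82 with Nanog tags and 0.32 with Tgif1 tags. These correlations hold by construction in part, since each tag number enters the ratio. Across 5 bins of equal size ordered by the mean log2 signal of both factors, the weakest pairs had a median log2 ratio of 0.45 (0.41 to 0.49) and the strongest had -1.15 (-1.23 to -1.04). A pair at the floor of both lists has a log2 ratio of 0.50, so the floors bear on the value of the weakest bin, and the larger spread of Nanog by itself lowers the ratio as the mean grows. In the strongest bin 54.7% of pairs had Nanog at least 2-fold above Tgif1 and 7.17% had the opposite.

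The order of the pairs by Tgif1 signal went only weakly with their order by Nanog signal. Spearman's rho across the 4744 pairs was 0.23 for tags (0.20 to 0.26), 0.26 for the authors' fold enrichment, 0.24 for peak width and 0.31 for tags per bp. These points share 1 library per factor and the floors of both lists, and the values are descriptions. By 5 bins of tags, 1158 pairs, 24.4%, fell in the same bin for both factors. Unrelated orders would put about 1 in 5 pairs of each Tgif1 bin into each Nanog bin. Of the 949 pairs with the most Tgif1 tags, 303 were also in the top Nanog bin, 31.9% (29.0 to 35.0), while 137 were in the bottom Nanog bin, 14.4% (12.3 to 16.8). Among the 10% of pairs with the most Tgif1 tags, 104 of 474, 21.9%, were in the top 10% for Nanog, where unrelated orders would give about 10%. Within single chromosomes rho ranged from 0.12 to 0.36.

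By tag number, paired peaks differed from the other peaks of their lists mainly on the Nanog side. The median Nanog peak held 43 tags when paired (42 to 44) and 26 among the 12089 autosomal peaks that were not (26 to 27). The median Tgif1 peak held 55 tags when paired (54 to 56) and 54 otherwise (53 to 55). From the bin of Nanog peaks with the fewest tags to that with the most, the share in a pair went from 14.6% (13.5 to 15.9) through 24.1% in the middle bin to 51.1% (49.4 to 52.8). For Tgif1 the same bins lay between 28.3% and 29.7%. A strong Nanog peak was thus more often matched than a weak one, while the shares of the Tgif1 bins had overlapping intervals. By fold enrichment the medians were 14.6 and 12.8 for paired and other Tgif1 peaks, and 25.1 and 22.8 for Nanog, a factor of 1.14 for Tgif1 and 1.11 for Nanog. Paired Tgif1 peaks were narrower than the others, with medians of 847 and 969 bp, and paired Nanog peaks were wider, with 738 and 603 bp.

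Summits within the pairs lay at most 200 bp apart by the rule, and most lay well inside that limit. Raising the limit to 500 bp gave 5503 pairs in place of 4744. The median distance was 42 bp (40 to 44), 56.7% of pairs were at most 50 bp apart and 82.6% at most 100 bp, and in 40 pairs the summits coincided. The peaks of all 4744 pairs overlapped. The ratio leaned slightly towards Nanog where the summits were closest: the median log2 ratio was -0.20 (-0.34 to -0.06) in the 687 pairs at 0 to 10 bp and 0.18 (0.04 to 0.31) in the 302 pairs at 151 to 200 bp. The rank correlation of ratio and distance was 0.09. At the edge of the rule, 109 pairs at 181 to 200 bp had a median of 0.07 and 80 mutually nearest summits at 201 to 220 bp, which were left out, had 0.36.

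Tgif1 peaks were the wider of the paired peaks. The median width was 847 bp for Tgif1 (836 to 858) and 738 bp for Nanog (727 to 747), and the Tgif1 peak was wider in 3016 pairs, 63.6% (62.2 to 64.9). The median log2 width ratio was 0.19 (0.17 to 0.21). Width moved with the tag ratio, at a rank correlation of 0.72 across pairs. Where Tgif1 was at least 2-fold above Nanog the median widths were 1258 bp for Tgif1 and 609 bp for Nanog, and where Nanog was at least 2-fold above Tgif1 they were 761 and 946 bp. Counting tags per bp narrowed the SD of the log2 ratio from 1.18 to 0.84. The part of width in the tag ratio was not tested beyond this.

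**Figure D2:**
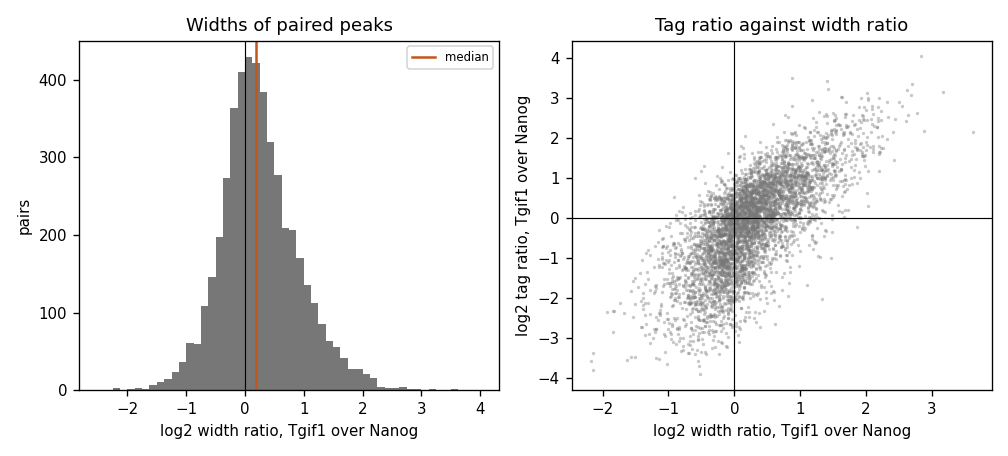
Left, number of pairs by log2 width ratio of the Tgif1 over the Nanog peak, with the median of 0.19 marked; right, log2 tag ratio against log2 width ratio for the same pairs. Pairs with a wider Tgif1 peak had the higher tag ratios, at a rank correlation of 0.72.

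An Hdac1 peak overlapped 3884 of the pairs, 81.9% (80.7 to 82.9), and both factors were stronger there. The median pair had 58 Tgif1 and 47 Nanog tags with Hdac1, and 43 and 30 without. Nanog was higher by 1.57 times and Tgif1 by 1.35 times, so the ratio lay towards Nanog. The median log2 ratio was -0.10 (-0.16 to -0.05) in the 3884 pairs with Hdac1 and 0.21 (0.12 to 0.26) in the 860 without. The shift was -0.31 (Price-Bonett interval over pairs -0.39 to -0.23). It was below 0 on 18 of 19 chromosomes, the exception being chromosome 17 at 0.15 (-0.16 to 0.46). Most of the intervals for single chromosomes included 0, such as that of -0.01 (-0.54 to 0.52) on chromosome 14. The distributions overlapped widely, with quartiles of -1.01 and 0.65 with Hdac1 and of -0.49 and 0.67 without. Of the pairs with Hdac1, 25.2% had Nanog at least 2-fold above Tgif1, against 15.6% of those without and 23.4% of all pairs. The opposite class took 16.2% and 14.2%, near the 15.8% of all pairs.

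The direction of the Hdac1 shift depended on which signal was held level. In 5 bins of Tgif1 tags the ratio was lower with Hdac1 in each, by -0.48 to -0.86. In 5 bins of Nanog tags it was higher with Hdac1 in each, by 0.08 to 0.43, with an interval that included 0 in the strongest bin. In 5 bins of the mean signal the shift was 0.02, 0.02, 0.06, 0.55 and 0.19, and only the interval of 0.55 (0.21 to 0.89) excluded 0. At like Nanog signal, pairs with Hdac1 thus carried 1.18 to 1.42 times the Tgif1 tags of pairs without it. At like Tgif1 signal they carried 1.41 to 1.61 times the Nanog tags. Binning by a factor's own tags largely removes that factor's part of the shift by construction. Binning by the mean ties more of either factor to less of the other, also by construction. The bins of Nanog tags and of Tgif1 tags were chosen after the data were seen. Hdac1 was present at 64.7% of pairs in the weakest and 94.7% in the strongest bin of mean signal, the bins in which the median ratio was 0.45 and -1.15.

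**Figure D3:**
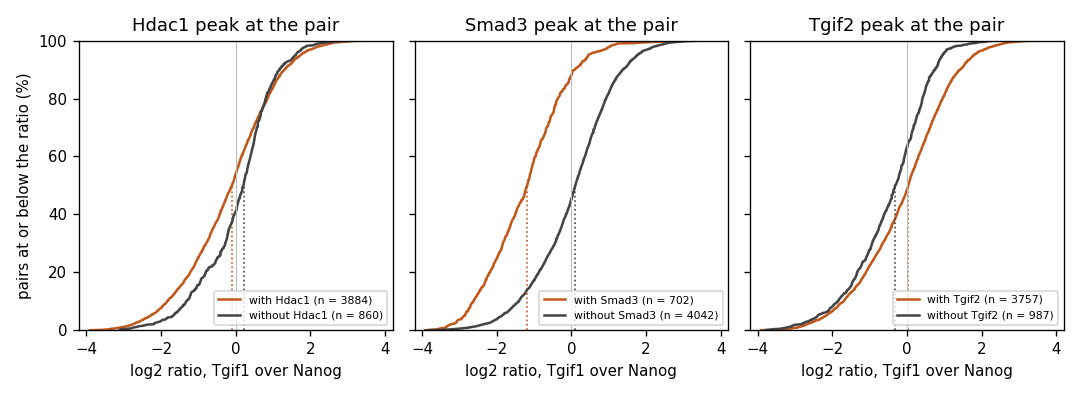
Cumulative share of pairs (vertical, percent) by log2 ratio of Tgif1 over Nanog (horizontal), for pairs with and without a peak of Hdac1, Smad3 or Tgif2; dotted lines mark the medians. The curves with and without Smad3 stand 1.28 apart at the median, those for Hdac1 0.31 and those for Tgif2 0.35 in the opposite direction.

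Over all pairs together, Smad3 peaks went with the largest shift of the 3 other factors. Inside bins of mean signal the mean shift was -0.76 for Smad3 and 0.87 for Tgif2. Those values give no ranking, because a level mean ties more Tgif1 to less Nanog by construction. In these bins pairs with Tgif2 had 0.69 to 0.91 times the median Nanog signal of pairs without it, against 1.13 times over all pairs. Smad3 overlapped 702 pairs, 14.8% (13.8 to 15.8), and its list was short, with 1226 peaks in all. That list held 43227 tags, against 904246 for Hdac1 and 1347497 for Tgif2, so weaker Smad3 sites could count as absent. The median pair had 127.5 Nanog tags with Smad3 and 37 without, a factor of 3.45, while Tgif1 had 70 and 53, a factor of 1.32. The median log2 ratio was -1.18 (-1.27 to -1.11) with Smad3 and 0.11 (0.08 to 0.14) without, a shift of -1.28 (-1.37 to -1.20). It lay between -1.88 and -0.87 on the 19 chromosomes. Nanog was at least 2-fold above Tgif1 in 415 of the 702 pairs with Smad3, 59.1%, compared with 23.4% of all pairs. Only 16 of the 702, 2.28%, had Tgif1 at least 2-fold above Nanog, compared with 15.8% of all pairs.

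Smad3 was present at 0.843%, 2.00%, 6.33%, 17.1% and 47.7% of pairs from the bin with the fewest Nanog tags to that with the most. Inside these bins Nanog, the denominator of the ratio, is brought closer to level by construction, but not in the last. That bin spans 96 to 1349 Nanog tags and held 453 of the 702 pairs with Smad3. The shift inside the bins was -0.65, -0.35, -0.15, -0.04 and -0.08. The first of these bins held 8 pairs with Smad3 and the next 19, and the intervals of the last 3 included 0. Without the 2 thinly filled bins the largest shift was -0.15 (-0.40 to 0.11). Inside bins of Tgif1 tags the shift remained at -1.22 to -1.78. In the bin with the most Nanog tags, pairs with Smad3 held 1.32 times the Tgif1 tags and 1.36 times the Nanog tags of pairs without it. The shift of -0.08 there thus does not stand for Tgif1 alone.

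Tgif2 peaks went with a shift in the opposite direction. Tgif2 overlapped 3757 pairs, 79.2% (78.0 to 80.3). The median pair had 61 Tgif1 tags with Tgif2 and 39 without, a factor of 1.56, whereas Nanog had 44 and 39, a factor of 1.13. The median log2 ratio was 0.03 (0.00 to 0.07) with Tgif2 and -0.32 (-0.38 to -0.22) without. The shift of 0.35 (0.26 to 0.44) was above 0 on 19 of 19 chromosomes, from 0.03 to 0.66. On most single chromosomes its interval included 0, such as -0.64 to 0.70 around the 0.03 of chromosome 18. Tgif1 was at least 2-fold above Nanog in 18.9% of pairs with Tgif2 and 4.26% of those without, against 15.8% of all pairs. With Tgif2 called by a summit within 200 bp instead of overlap the shift was 0.16.

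Inside bins of Nanog tags the Tgif2 shift stood at 0.49 to 0.65, each interval above 0. Inside bins of Tgif1 tags, where the Tgif1 part is largely removed by construction, it was 0.04, 0.12, 0.38, 0.02 and 0.30. Only the interval of 0.38 (0.12 to 0.63) excluded 0. In the last of these bins, pairs with Tgif2 still held 1.21 times the Tgif1 signal of pairs without it. The share of pairs with Tgif2 went from 53.6% in the bin with the fewest Tgif1 tags to 96.6% in that with the most, and from 78.0% to 85.1% across the bins of Nanog tags. Cross-reaction of the Tgif1 antibody with Tgif2 was not tested.

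**Figure D4:**
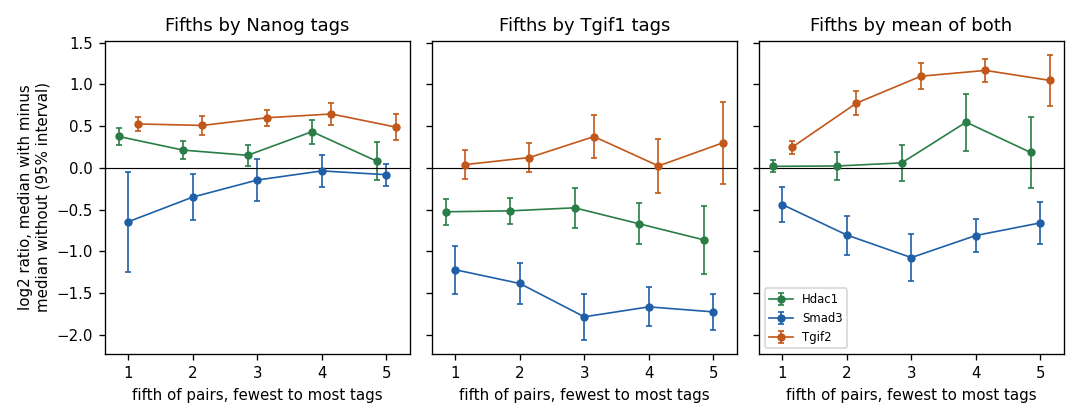
Difference of the median log2 ratio between pairs with and without a peak of Hdac1, Smad3 or Tgif2 (vertical, bars are 95% Price-Bonett intervals over pairs) inside 5 bins of pairs from fewest to most tags, ordered by Nanog tags, by Tgif1 tags or by the mean log2 signal. Hdac1 lies above 0 in the bins of Nanog tags and below 0 in the bins of Tgif1 tags; the leftmost Smad3 value by Nanog tags rests on 8 pairs.

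At each combination of the other factors, the median was lower with Smad3 and higher with Tgif2. Hdac1 showed no such uniform order. Its shift was -0.15 (-0.22 to -0.08) in pairs without Smad3. In pairs with Smad3 it was 0.41 (-0.22 to 1.04), where 670 had Hdac1 and 32 did not. The 501 pairs with Tgif2 only had the highest median log2 ratio, 0.31 (0.22 to 0.42), followed by 0.18 (0.12 to 0.23) in the 2656 with Hdac1 and Tgif2. The 327 pairs with none of the 3 had 0.03 (-0.11 to 0.22). The 558 with Hdac1 only had -0.37 (-0.46 to -0.27). The 580 pairs with all 3 had -1.13 (-1.23 to -1.05), and the 90 with Hdac1 and Smad3 but no Tgif2 had -1.47 (-1.63 to -1.23). Pairs with Smad3 but no Hdac1 were few, 20 with Tgif2 and 12 without, and their medians were -1.05 and -2.29. Some neighbours in this order had overlapping intervals, such as the pairs with none and those with Hdac1 and Tgif2. No interval was computed for the difference between neighbours, so their order was not tested. The pairs with all 3 held the highest median Tgif1 signal, 69.6 per 1000000, so their low ratio went with a Nanog signal of 162 per 1000000 rather than with little Tgif1.

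**Figure D5:**
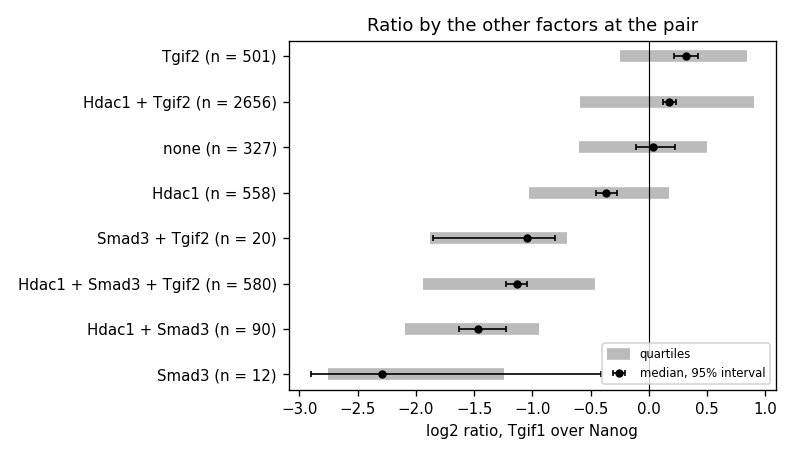
Log2 ratio of Tgif1 over Nanog (horizontal) by which of Hdac1, Smad3 and Tgif2 had a peak at the pair; points are medians with 95% intervals from order statistics, grey bars the quartiles. The 4 kinds with Smad3 have medians from -2.29 to -1.05, below the 4 kinds without it.

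Where the other factors had a peak, their own tag numbers followed the paired factors to different extents. Hdac1 tags had a rank correlation of 0.57 with Tgif1 tags and 0.33 with Nanog tags across 3884 pairs. Tgif2 tags had 0.68 and 0.13 across 3757 pairs. Smad3 tags had 0.52 (0.46 to 0.57) and 0.57 (0.51 to 0.62) across 702, with overlapping intervals. Positions showed a like order. Among pairs whose Tgif1 and Nanog summits were at least 50 bp apart, the Tgif2 summit was closer to Tgif1 in 992 of 1480, 67.0% (64.6 to 69.4). The Smad3 summit was closer to Tgif1 in 94 of 291, 32.3% (27.2 to 37.9), and thus more often closer to Nanog. For Hdac1 the summit was closer to Tgif1 in 720 of 1528, 47.1% (44.6 to 49.6). Hdac1 tags thus followed Tgif1 more closely, while the Hdac1 summit was slightly more often closer to Nanog. These summit counts took the overlapping peak with the most tags, used summits within 200 bp of either partner, and were chosen after the data were seen.

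The pairs with the highest ratio had strong Tgif1, strong Tgif2 and a Nanog peak at or near the smallest size in its list. At the highest, chr12:86812958-86816701 (mm9, Tgif1 peak), Tgif1 had 350 tags and Nanog 16, a log2 ratio of 4.04. The Nanog peak there spans 527 bp of the 3743 bp Tgif1 peak, and Tgif2 had 314 tags and Hdac1 57. Next came chr11:94853616-94854788, with 240 Tgif1 and 16 Nanog tags and summits 5 bp apart. Tgif1 reached a 120-fold enrichment there and Nanog 7.58-fold. The other 3 were chr17:47765851-47767433, chr10:80038849-80042210 and chr14:8930285-8931365, with 224 to 231 Tgif1 tags and 16 to 18 Nanog tags. All 5 carried Hdac1 and Tgif2, the latter with 229 to 314 tags, and none carried Smad3. Among all pairs the shares with Hdac1, Tgif2 and Smad3 were 81.9%, 79.2% and 14.8%, so these 5 do not stand out by presence.

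At the other end, the pairs with the lowest ratio joined Nanog peaks of 267 to 552 tags to Tgif1 peaks of 30 to 53 tags, below the paired median of 55. At chr12:100537942-100538579 Tgif1 had 36 tags and Nanog 405, a log2 ratio of -3.90, with summits 8 bp apart. Nanog reached a 631-fold enrichment there and Tgif1 26.0-fold. At chr17:84750447-84751015 Tgif1 had 53 tags and Nanog 552, with Hdac1 at 80 and Smad3 at 40 and no Tgif2 peak. The other 3 were chr10:84914345-84914990, chr5:73610894-73611389 and chr10:114905864-114906603, with 30 to 52 Tgif1 and 267 to 487 Nanog tags. All 5 carried Hdac1, 2 carried Smad3 and 2 carried Tgif2, against 81.9%, 14.8% and 79.2% of all pairs.

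The 5 pairs with the highest mean signal all carried Smad3 and Tgif2, which were present at 45.4% and 92.2% of pairs in the strongest bin of mean signal. The first, chr18:40467635-40468050, stood apart from the rest: Tgif1 had 1365 tags and Nanog 1349 in peaks of 415 and 458 bp. Hdac1 had 748 tags there, Smad3 539 and Tgif2 647, and the fold enrichments of Tgif1 and Nanog were only 14.9 and 28.9. It was followed by chr1:120971401-120973892 with 295 Tgif1 and 815 Nanog tags and all 3 other factors. At chr13:66811737-66812982 Tgif1 had 403 and Nanog 579 tags, with no Hdac1 peak. The last were chr9:110846452-110851023 with 379 and 572 tags and chr9:45156528-45158506 with 344 and 499. Their log2 ratios lay between -1.88 and -0.39, all on the Nanog side.

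Among the 100 pairs of highest mean signal, the 5 with the shortest summit distance were 0 or 1 bp apart and still differed in ratio. At chr1:59479013-59481017 both factors had 282 tags, a log2 ratio of -0.41 after scaling. At chr2:33435974-33438130 Tgif1 had 149 and Nanog 588 tags, and at chr15:38006646-38009070 Tgif1 had 379 and Nanog 181. The remaining ones were chr4:141120069-141122041 with 157 and 423 tags and chr1:64777760-64780775 with 200 and 392. Over these 5 pairs the log2 ratio ranged from -2.39 to 0.66, and the 3 with coinciding summits lay between -2.39 and -0.41.

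The balance also varied between chromosomes, which held 120 to 438 pairs each. The median log2 ratio ran from -0.45 (-0.64 to -0.21) on chromosome 14 to 0.21 (0.04 to 0.41) on chromosome 7, and was below 0 on 13 of 19.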

How the data were processed

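Peak lists from 1 ChIP-seq library each for Tgif1, Nanog, Hdac1, Smad3 and Tgif2 were used. Per the submitters' processing notes the authors used BWA 0.5.9-r16, MACS and mm9. Settings, MACS version and control library are not given in the sources used here. The deposited lists have no header. Columns were read from their values as a count of tags per peak and a fold enrichment, a ratio from the authors' peak caller. The final 3 columns agreed in every peak and were read as the summit. Coordinates are printed as deposited, and may be off by 1 bp since the counting base is not stated.

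Tags were divided by the list's tag sum over all chromosomes. Another factor was present when its peak overlapped the union of the paired peaks by at least 1 bp. Intervals are 95%: Wilson for shares, order statistics for medians, Price-Bonett for differences of medians and the Fisher transform for rho. They take pairs or peaks as independent draws and cover no variation between libraries. Pairing and shift were tested on simulated data. Named pairs were the 5 with the highest and lowest ratio, the 5 with the highest mean log2 signal, and the 5 with the shortest distance among the 100 highest. The members, alternatives and comparisons were chosen with earlier results of these data known. The planned gene lists and sequence words were not run, because mm9 annotation and sequence were not used here. Python 3.11.15, NumPy 2.4.6, pandas 2.3.3, SciPy 1.17.1 and matplotlib 3.10.9 were used.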

Additional observations from a re-analysis of the deposited data

How the results depend on the processing

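No paired analysis was possible because each factor had 1 library, and leaving out a replicate was not possible either. Of 96 alternative values, 58 stayed within the interval of the value reported, or within 1.5 times for a count, 36 moved beyond it and 2 turned a shift whose interval excluded 0. Both concern Hdac1, whose mean shift was 0.17 inside bins of mean signal and 0.25 inside bins of Nanog tags. The shift was -0.61 inside bins of Tgif1 tags, -0.43 inside bins of width, -0.39 with Hdac1 called by summit and -0.19 with both peaks above the higher floor of the lists. For Smad3 the mean shift inside bins was -0.76 by mean signal, -0.25 by Nanog tags, -1.56 by Tgif1 tags and -1.44 by width. It was -0.88 by tags per bp, -1.42 with the Smad3 peaks at or above median fold, -1.19 without the 1% of peaks with most tags, -1.05 above the higher floor and -0.73 among peaks at or above their list's median fold. For Tgif2 it was 0.87 by mean signal, 0.55 by Nanog tags, 0.17 by Tgif1 tags, 0.20 by tags per bp and 0.16 by summit. The means over bins, and the bins by tags of 1 factor, are additions made with the data in view.

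The median log2 ratio, whose interval included 0, took either sign: it was -0.079 with summits at most 100 bp apart, 0.018 at 500 bp, 0.18 by tags per bp scaled to each list's sum of tags per bp (-0.30 when scaled by tag sums), 0.091 by fold enrichment, 0.43 with the tag sum of paired peaks, -0.31 above the higher floor and -0.57 among peaks at or above median fold. Tgif1 was at least 2-fold above in 1377 of 4744, 353 of 3910 and 82 of 1666 pairs under the last 3 of these. Nanog was at least 2-fold above in 664 of 4744 pairs with the tag sum of paired peaks, 526 of 4744 by tags per bp and 573 of 1666 at or above median fold. The rank correlation was 0.31 by tags per bp, 0.20 without the 1% with most tags and 0.39 at or above median fold. The log2 width ratio was 0.10 above the higher floor and 0.041 at or above median fold. Depth was not known, and sites below 30 Tgif1 or 16 Nanog tags could not be seen.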
